A study of Mus musculus with 8 samples.

Results

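Microglia are the resident macrophages of the brain, and 9 genes for the transcription factors that set their identity and their activation were followed through sorted microglia of 2 genotypes. The genes were Sall1, Mef2a, Mef2c, Spi1, Cebpa, Bhlhe40, Bhlhe41, Mitf and Tfec. They were picked by gene symbol, and these 9 of the 25157 genes compared had a row in each of the 6 deposited tables. Mice that carried floxed Prmt1 alleles without Cre (PRMT1FL, labelled PRMT1Ifl/fl) were compared with floxed mice that also carried a Cx3cr1 Cre-ERT2 driver (PRMT1Cx3cr1-KO, labelled PRMT1fl/fl; cx3r1cre-ert2). Prmt1 encodes an arginine methyltransferase. All mice were C57BL/6. Both genotypes were given tamoxifen, and only the PRMT1Cx3cr1-KO mice carried Cre, so loss of Prmt1 and presence of the driver cannot be told apart. Cre driven from Cx3cr1 acts in microglia and also in other cells that express Cx3cr1.

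The 8 libraries formed 5 groups. There were 3 libraries of PRMT1FL and 2 of PRMT1Cx3cr1-KO on the normal diet, labelled 11 weeks. On a diet with 0.2% cuprizone (CPZ), a compound that chelates copper, kills oligodendrocytes and so removes myelin, there were 3 groups of 1 library, labelled 5 weeks: CD11c low and CD11c high cells of PRMT1FL, and CD11c low cells of PRMT1Cx3cr1-KO. The labels do not say from when the weeks are counted, whether a library came from 1 mouse or a pool, or whether the normal-diet cells were gated on CD11c, the product of Itgax. Between normal diet and CPZ the effects of diet, gate and week label therefore cannot be told apart, while the pair of PRMT1FL libraries on CPZ differ in gate alone by their labels. The p-values measure only the spread between these libraries.

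The identity of microglia rests on a small set of DNA-binding proteins. PU.1, the ETS factor encoded by Spi1, opens macrophage enhancers together with the leucine zipper factor C/EBP alpha (Cebpa), while the zinc finger protein SALL1 and the MADS-box factors MEF2A and MEF2C mark microglia among macrophages. BHLHE40 and BHLHE41 are related basic helix-loop-helix repressors. MITF and TFEC belong to the MiT/TFE family, whose members bind E-box motifs such as CACGTG and switch on genes of the lysosome.

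The libraries held 1579775 to 3520015 reads over all genes, the fewest in PRMT1FL CPZ CD11c high, and the 9 genes together took 0.343% to 0.413% of them. Values below are scaled reads, that is whole reads divided by a median-of-ratios size factor per library. All 8 microglial markers had reads in every library, with a summed level of 8820 scaled reads in PRMT1FL CPZ CD11c low, 16100 in PRMT1FL CPZ CD11c high and 9800 to 13800 in the other libraries. The 6 neutrophil markers summed to 534 scaled reads in PRMT1FL CPZ CD11c low, 44.6 in PRMT1FL CPZ CD11c high, 5.68 in PRMT1Cx3cr1-KO CPZ CD11c low and 190 to 446 on the normal diet. Endothelial and mural markers, 7 genes, summed to 814 to 1090 on CPZ and 353 to 444 on the normal diet, with 451.1 to 593.8 of the CPZ sums from Flt1. The astrocyte list (7 genes) summed to 520 to 869, the oligodendrocyte list (5) to 517 to 1080, the monocyte and border macrophage list (7) to 186 to 651, the neuron list (5) to 6.62 to 24.5 and the B cell list (3) to at most 2.23. The part of these cells in the results was not tested. Prmt1 had 85.7, 91.2 and 90.4 scaled reads in PRMT1FL and 60.4 and 82.1 in PRMT1Cx3cr1-KO on the normal diet. On CPZ it had 117 and 101 scaled reads in PRMT1FL CD11c low and high and 80.4 in PRMT1Cx3cr1-KO. Its reads were counted over the whole transcript, which need not show a deletion of single exons. By immunoblot of isolated microglia the authors reported a loss of PRMT1 protein in PRMT1Cx3cr1-KO.

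Per length of transcript, Cebpa and Sall1 were the most abundant of the 9 genes in normal-diet PRMT1FL microglia, at 592.4 and 553.4 scaled reads per kb. Mef2a (425.9 per kb), Spi1 (401.6 per kb) and Mef2c (299.1 per kb) followed, and these 5 genes lay between the percentiles 97 and 99.7 of the genes tested. Bhlhe41 stood at 158.6 per kb and Mitf at 59.34 per kb. Bhlhe40 (3.165 per kb) and Tfec (1.108 per kb) lay at the percentiles 4.2 and 1.0, near the limit of detection. On CPZ Bhlhe40 moved from this low end to rank 5 of 9 in both PRMT1FL libraries, level with Mef2c: Bhlhe40 had 229.7 and Mef2c 225.1 per kb in CD11c low cells. In CD11c high cells the same pair had 315.7 and 315.3 per kb. In PRMT1Cx3cr1-KO CPZ CD11c low cells Bhlhe40 had 135.0 per kb, rank 7, and Tfec had 24.11 per kb, the percentile 27.2.

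**Figure D1:**
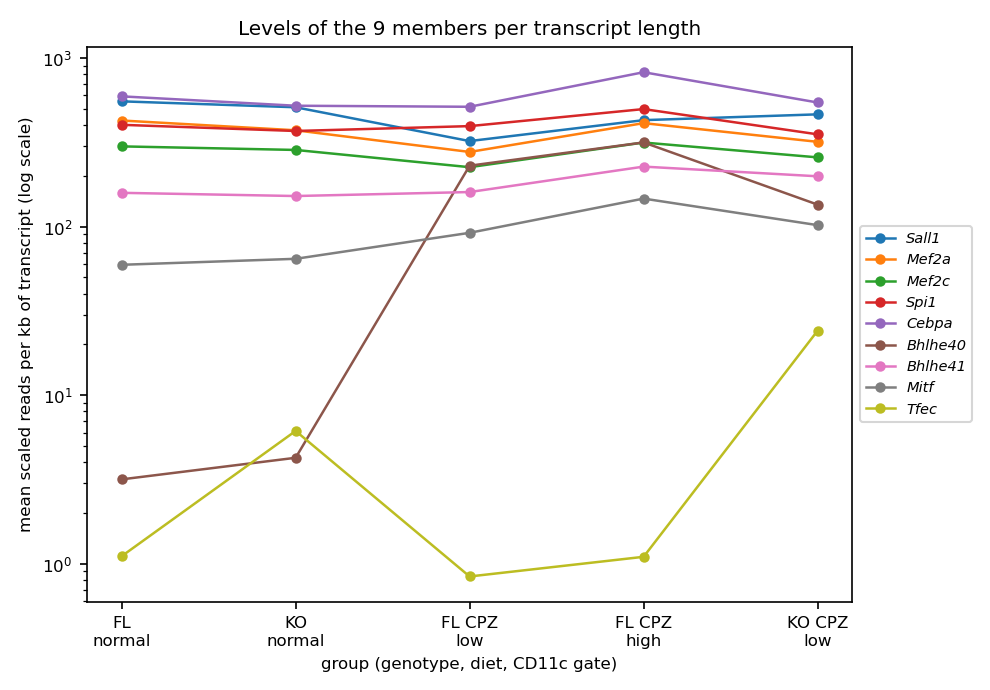
Mean scaled reads per kb of transcript (vertical log axis) of the 9 genes in the 5 groups (horizontal axis, genotype, diet and CD11c gate), with 1 line per gene. Bhlhe40 runs from 3.165 per kb in normal-diet PRMT1FL to 315.7 in PRMT1FL CPZ CD11c high, Tfec lies above 6 per kb only in the groups of PRMT1Cx3cr1-KO, and the other 7 lines span far smaller ranges. The CPZ groups are 1 library each.

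Differences were tested with limma in 1 fit of all 8 libraries on log2(scaled reads + 1), for the 11220 genes whose mean reached 10 scaled reads, and p-values were adjusted over all of them. A gene was called at adjusted p under 0.05 and an absolute log2 fold over 1. The lone CPZ libraries were assumed to vary like the normal-diet replicates. Tfec had a mean of 9.191 scaled reads and so was not tested there, which leaves 8 tested members. Another scaling moves the whole scale: with a common total in place of the size factors the median log2 fold of all genes went from 0.02 to -0.23 between CD11c high and CD11c low PRMT1FL cells, from -0.01 to -0.15 between CD11c high and normal-diet PRMT1FL cells, from 0.03 to -0.08 between PRMT1Cx3cr1-KO and PRMT1FL CD11c low cells and from 0.00 to 0.14 between PRMT1Cx3cr1-KO CD11c low and PRMT1FL CD11c high cells.

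**Figure D2:**
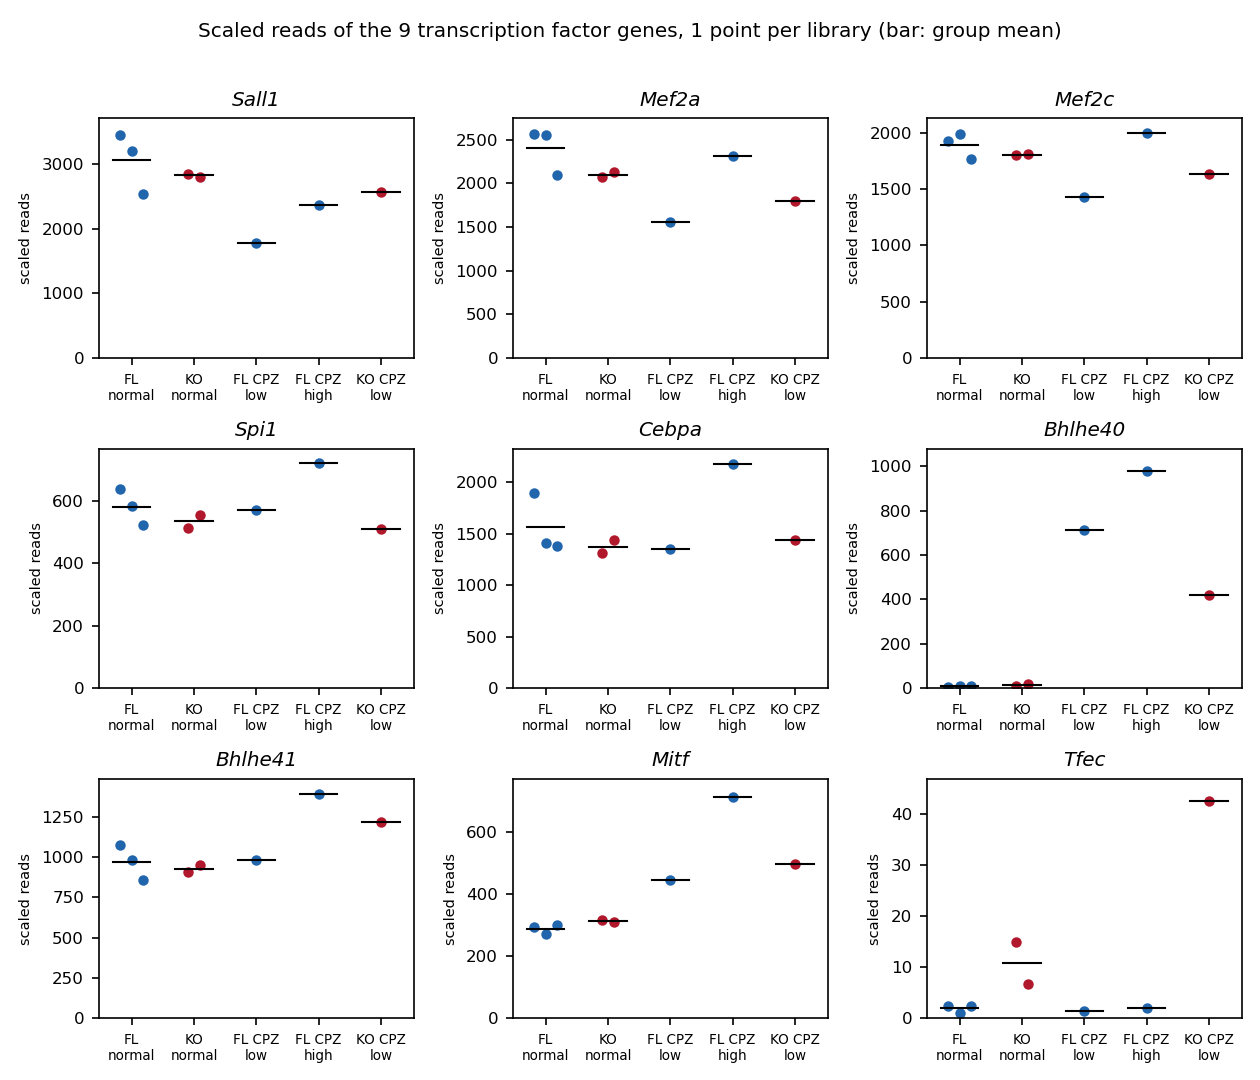
Scaled reads (vertical axis, from 0) of each of the 9 genes, 1 point per library and 1 panel per gene, in the 5 groups (horizontal axis), with blue for PRMT1FL, red for PRMT1Cx3cr1-KO and a bar at the group mean. Bhlhe40 lies under 18 scaled reads in the 5 normal-diet libraries and above 419 in the 3 CPZ libraries, and Tfec is higher in the 3 PRMT1Cx3cr1-KO libraries than in the 5 PRMT1FL libraries.

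In scaled reads the identity factors Sall1, Mef2a and Mef2c had their lowest values in PRMT1FL CPZ CD11c low cells. With quantile normalization all were instead lower in CD11c high than in CD11c low PRMT1FL cells, by log2 folds of -0.29, -0.07 and -0.16. Sall1 had 3448, 3210 and 2532 scaled reads in normal-diet PRMT1FL and 2849 and 2803 in normal-diet PRMT1Cx3cr1-KO. On CPZ Sall1 had 1780 and 2369 in the CD11c low and CD11c high cells of PRMT1FL and 2565 in those of PRMT1Cx3cr1-KO, which were CD11c low. The lone PRMT1FL CD11c low library thus lay below every other library, while the 2 genotypes overlapped on the normal diet. Against normal-diet PRMT1FL the log2 fold of Sall1 in CD11c low cells was -0.77 ± 0.209 (SE; limma, adjusted p = 0.0196), short of the fold threshold. The adjusted p was 0.0818 without PRMT1FL replicate 2, 0.0674 without PRMT1Cx3cr1-KO replicate 1 and 0.0688 without PRMT1Cx3cr1-KO replicate 2. The corresponding log2 folds of Sall1 were -0.36 in CD11c high cells (adjusted p = 0.203) and, in PRMT1Cx3cr1-KO against its own normal diet, -0.14 (adjusted p = 0.704). Over 18 settings the Sall1 fold ran from -0.904 to -0.356 in CD11c low and from -0.649 to -0.27 in CD11c high PRMT1FL cells. Its adjusted p was under 0.05 in 14 and 4 of these settings. The genotype difference in CD11c low cells was 0.53 ± 0.256 (adjusted p = 0.261), and the interaction of genotype and diet was 0.63 ± 0.305 (adjusted p = 0.317). In bulk samples fewer cells of a type and less RNA per cell cannot be told apart. The PRMT1FL CD11c low library also had the lowest summed level of microglial markers and the highest of neutrophil markers, and their part in the lower Sall1 and Mef2a values was not tested.

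Mef2a had 2564, 2549 and 2091 scaled reads in normal-diet PRMT1FL and 2073 and 2130 in normal-diet PRMT1Cx3cr1-KO. On CPZ it had 1563 and 2317 in CD11c low and CD11c high PRMT1FL cells and 1795 in PRMT1Cx3cr1-KO cells. The log2 fold of Mef2a in PRMT1FL CD11c low cells was -0.61 ± 0.178 (limma, adjusted p = 0.0263), again under the fold threshold, and its adjusted p was 0.101 without PRMT1FL replicate 2, 0.0829 without PRMT1Cx3cr1-KO replicate 1 and 0.0832 without PRMT1Cx3cr1-KO replicate 2. Mef2c ran the same way at a smaller size, with 1924, 1987 and 1770 scaled reads in normal-diet PRMT1FL, 1800 and 1807 in PRMT1Cx3cr1-KO, and 1425, 1997 and 1630 in the CPZ libraries in the order above. Its log2 fold in PRMT1FL CD11c low cells was -0.41 ± 0.152 (limma, adjusted p = 0.0657). Over the 8 libraries Mef2a and Mef2c had a Pearson r of 0.96 on the log2 scale, given as a description since libraries of a group share their condition. The exons of Mef2a overlap 302 bases of Lysmd4 on the other strand, whose 6 to 49 reads per library compare with 1194 to 2645 for Mef2a. The strand setting of the authors' counting is not stated.

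Of the paralogs fixed for all 9 genes (17, of which 12 passed the filter), Sall2 fell in PRMT1FL CPZ CD11c low cells, by 1.10 ± 0.124 on the log2 scale (limma, adjusted p = 0.000219; called in 16 of 18 settings, with a log2 fold of -0.99 at a common total). It was the 1 of the 12 called there, beside 12.8% of all genes, so the count does not set the paralogs apart. Sall2 encodes another zinc finger protein of the Sall family, and it had 249.1 to 263.8 scaled reads in normal-diet PRMT1FL and 118.7 in that library. Sall3 had 1155 to 1412 scaled reads in normal-diet PRMT1FL, a family member of a size with Bhlhe41. Its log2 folds against normal-diet PRMT1FL were -0.51 ± 0.157 in CD11c low and -0.53 ± 0.157 in CD11c high cells (limma, adjusted p = 0.0332 and 0.0231), under the fold threshold.

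Spi1 and Cebpa, the general macrophage factors, were called in no comparison of the fit. Spi1 had 636, 582.7 and 523.5 scaled reads in normal-diet PRMT1FL and 514.2 and 553.4 in PRMT1Cx3cr1-KO. On CPZ Spi1 had 570.5 and 719.9 in CD11c low and CD11c high PRMT1FL cells and 509.9 in PRMT1Cx3cr1-KO cells. The CD11c high library was the highest of the 8 and the PRMT1Cx3cr1-KO CD11c low library the lowest. The log2 fold of Spi1 between these 2 libraries was -0.50 ± 0.161 (limma, adjusted p = 0.0829), and that of CD11c high over normal-diet PRMT1FL was 0.31 ± 0.131 (adjusted p = 0.0846).

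Cebpa had 1895, 1412 and 1381 scaled reads in normal-diet PRMT1FL, 1310 and 1440 in normal-diet PRMT1Cx3cr1-KO, and, on CPZ, 1355 and 2173 in CD11c low and CD11c high PRMT1FL cells and 1437 in PRMT1Cx3cr1-KO cells. As for Spi1, the CD11c high library was the highest. Its log2 fold over normal-diet PRMT1FL was 0.49 ± 0.192 (limma, adjusted p = 0.0682) and over CD11c low PRMT1FL cells 0.68 ± 0.236 (adjusted p = 0.12). Cebpa and Spi1 had a Pearson r of 0.91 over the 8 libraries, again as a description. The paralog of Cebpa, Cebpd, a leucine zipper factor induced in inflammation, fell in CD11c high cells, with a log2 fold of -1.68 ± 0.121 against normal-diet PRMT1FL (limma, adjusted p = 4.91e-06). Cebpd had 301.2, 268 and 278.4 scaled reads in normal-diet PRMT1FL, 87.32 in CD11c high cells and 310.3 in PRMT1Cx3cr1-KO CD11c low cells. The log2 fold of Cebpd between these last 2 libraries was 1.82 ± 0.148 (adjusted p = 0.00018), and between CD11c high and CD11c low PRMT1FL cells -1.002 ± 0.148 (adjusted p = 0.00913), just past the fold threshold and called in 11 of 16 settings. Cebpd was the 1 of the 12 tested paralogs called in each of these comparisons, beside 16.3%, 3.84% and 1.93% of all genes in the order given.

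Among 18 genes listed as PU.1 targets, all tested, Cybb rose in all 3 CPZ groups against the normal diet of the same genotype. Cybb encodes the catalytic subunit of the phagocyte NADPH oxidase. It had 159.9, 179 and 149 scaled reads in normal-diet PRMT1FL, 134.8 and 164.2 in PRMT1Cx3cr1-KO, and, on CPZ, 612.8 and 1605 in CD11c low and CD11c high PRMT1FL cells and 803.2 in PRMT1Cx3cr1-KO cells. Its log2 folds in the same order were 1.91 ± 0.146, 3.30 ± 0.146 and 2.42 ± 0.155 (limma, adjusted p = 2.34e-05, 2.41e-07 and 1.32e-05). In CD11c high cells 4 of the 18 rose and none fell against normal-diet PRMT1FL, a share near the 16.3% of all genes called there. The others were Csf2ra, a subunit of the GM-CSF receptor (1.16), Cd14, a co-receptor for lipopolysaccharide (1.09), and Ptprc, which encodes CD45 (1.06). With a common total 2 of the 18 were called and with quantile normalization 1. Between CD11c high and CD11c low PRMT1FL cells 5 of the 18 were called higher and none lower, beside 1.93% of all genes called in either direction. The 18 had a median log2 fold of 0.81, where all tested genes had 0.02. The 8 microglial markers had a median of 0.88 in the same comparison, with 3 called higher, and the 4 tested neutrophil markers were all called lower, with a median of -3.44. Besides Cybb the called PU.1 targets were Csf1r, the receptor for CSF1 (1.14), Cd68, a lysosomal glycoprotein of macrophages (1.11), Tyrobp, the adaptor of TREM2 (1.04), and Trem2 itself (1.02). With a common total 1 of the 18 was called and with quantile normalization none, and the median went to 0.56 and 0.30. Before scaling, Csf1r had 2208 reads in CD11c low and 1864 in CD11c high cells. In that order Cd68 had 750 and 620, Tyrobp 315 and 249, Trem2 617 and 480, and Cybb 826 and 827. The size factors were 1.348 and 0.5154. Duplicate removal keeps about 1 read per base and strand, and Csf1r reached 0.621 reads per base against 0.18 for Cybb. The part of depth in the folds of CD11c high cells was not tested. None of the 18 was called between PRMT1Cx3cr1-KO and PRMT1FL in CD11c low cells, beside 2.17% of all genes, and their median was 0.20.

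Bhlhe40 had by far the widest range of the 9 genes. It had 6, 10 and 14 reads in the normal-diet PRMT1FL libraries and 11 and 21 in those of PRMT1Cx3cr1-KO. The CPZ libraries held 961 reads in CD11c low and 505 in CD11c high PRMT1FL cells, and 443 in PRMT1Cx3cr1-KO cells. In scaled reads of Bhlhe40 these were 6.951, 11.12 and 11.4, then 8.621 and 17.77, then 712.9, 979.9 and 419.1, so that the diets were far apart and the genotypes overlapped on the normal diet. Bhlhe40 rose in PRMT1FL CD11c low cells by a log2 fold of 6.07 ± 0.384 (limma, adjusted p = 7.28e-06). It was the 1 of 8 tested members called in this comparison, in which 12.8% of all tested genes were called in either direction. In PRMT1FL CD11c high cells the log2 fold of Bhlhe40 was 6.53 ± 0.384 (adjusted p = 1.35e-06), and Bhlhe40 and Mitf were the 2 of 8 called beside 16.3% of all genes. In PRMT1Cx3cr1-KO, CPZ against normal diet, it was 4.97 ± 0.408 (adjusted p = 4.98e-05), the 1 of 8 called beside 8.48% of all genes. A share of 1 in 8 or 2 in 8 is near these backgrounds, so the count does not set the members apart from other genes. The size of the Bhlhe40 change per total reads was 76.4-fold in CD11c low (exact 95% interval for counting error 53.2 to 114) and 88.2-fold in CD11c high PRMT1FL cells (61 to 132). In PRMT1Cx3cr1-KO it was 31.8-fold (22.2 to 47.1). Of the endothelial and mural markers, Flt1 was also higher in the 3 CPZ libraries (451.1 to 593.8 against 20.85 to 37.62 scaled reads), while Pecam1 was lower (27.17 to 81.61 against 205.1 to 234.3). Against the normal diet of the same genotype, 6 of these 7 markers rose and 1 fell in PRMT1FL CD11c low cells. In PRMT1FL CD11c high cells 2 rose and 1 fell, and in PRMT1Cx3cr1-KO CD11c low cells 1 rose and 1 fell. Of all tested genes 12.8%, 16.3% and 8.48% were called in these comparisons, in the order given. The part of these markers in the Bhlhe40 and Mitf results was not tested.

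The Bhlhe40 level in PRMT1Cx3cr1-KO CD11c low cells was 0.545 times that in PRMT1FL CD11c low cells per total reads (counting interval 0.486 to 0.61) and 0.472 times that in CD11c high cells (0.414 to 0.537). These intervals cover counting error only. With the spread of replicates the log2 fold of the former was -0.77 ± 0.471 (limma, adjusted p = 0.379), and edgeR gave an adjusted p of 0.02 at -0.80, under the fold threshold. The latter was -1.22 ± 0.471 (limma, adjusted p = 0.132), which edgeR called (-1.21, adjusted p = 0.00281), as did DESeq2 (-1.24, adjusted p = 0.00436). The interaction of genotype and diet for Bhlhe40 was -1.11 ± 0.56 (limma, adjusted p = 0.338). The antisense gene 0610040F04Rik, which shares 118 exon bases with Bhlhe40, had 0 reads in each library.

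Bhlhe41, the paralog of Bhlhe40, was already abundant on the normal diet. It had 1072, 979.7 and 857.3 scaled reads in PRMT1FL and 903.7 and 952.8 in PRMT1Cx3cr1-KO. On CPZ Bhlhe41 had 980 and 1387 in CD11c low and CD11c high PRMT1FL cells and 1216 in PRMT1Cx3cr1-KO cells, the last 2 above every normal-diet library. Its log2 fold in CD11c high cells was 0.52 ± 0.147 (limma, adjusted p = 0.0183; 0.0513 without PRMT1FL replicate 2), below the fold threshold. In PRMT1Cx3cr1-KO CD11c low cells against its normal diet it was 0.39 ± 0.156 (adjusted p = 0.111), and in PRMT1FL CD11c low cells 0.02 ± 0.147. Thus on the normal diet Bhlhe41 stood at 158.6 and Bhlhe40 at 3.165 scaled reads per kb in PRMT1FL, whereas on CPZ the order was turned in both PRMT1FL libraries, with 160.3 against 229.7 per kb in CD11c low cells. In PRMT1Cx3cr1-KO CPZ CD11c low cells Bhlhe41 stayed above Bhlhe40, at 198.8 against 135.0 per kb. The 2 genes were counted on transcripts of 6115 bases (Bhlhe41, chr6:145858243-145865420, minus strand) and 3104 bases (Bhlhe40, chr6:108660629-108666925, plus strand), in GRCm38. GENCODE places an unspliced transcript, Gm43909, opposite 1280 exon bases of Bhlhe41, and its reads were not counted separately.

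The stretch before the start of Bhlhe41 is shown because it holds the letters CACGTG, the E-box that BHLHE40, BHLHE41 and the MiT/TFE factors bind. Of 250-base windows before the start sites in the RefSeq promoter table (32851 windows, GRCm38.p6), 6.02% held CACGTG, which reads the same on both strands. For the other letters searched on both strands, 2.44% held GAGGAAGT, a PU.1-type motif, 9.56% held TTGCNNAA, a C/EBP-type motif, and 2.92% held the MEF2 motif. The table had windows for 7 of the 9 genes (all but Bhlhe40 and Spi1), 13 windows in all, and for 6 genes 1 window began at the start site of the counted transcript. Among the 13 windows there were 2 matches, CACGTG in Bhlhe41 and TTGCNNAA in Mitf, and a match describes the letters only. In the window chr6:145865421-145865670 (minus strand), capitals mark CACGTG, whose first base lies 153 bases before the start site.
Bhlhe41: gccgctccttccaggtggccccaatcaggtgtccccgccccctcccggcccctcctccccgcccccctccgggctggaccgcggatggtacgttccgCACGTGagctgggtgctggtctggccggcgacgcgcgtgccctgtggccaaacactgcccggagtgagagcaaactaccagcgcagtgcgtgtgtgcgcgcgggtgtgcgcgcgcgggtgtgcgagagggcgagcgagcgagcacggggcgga

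Mitf was higher in each CPZ library than in each normal-diet library. It had 294.3, 272.5 and 300.4 scaled reads in normal-diet PRMT1FL and 315.9 and 311.4 in normal-diet PRMT1Cx3cr1-KO. On CPZ it had 447.4 and 714.1 in CD11c low and CD11c high PRMT1FL cells and 496.7 in PRMT1Cx3cr1-KO cells. Bhlhe40 and Mitf were the 2 of 8 tested members with no overlap between diets, where 36.1% of all tested genes showed none. Mitf rose in CD11c high PRMT1FL cells by a log2 fold of 1.30 ± 0.112 (limma, adjusted p = 1.55e-05). In CD11c low cells the log2 fold of Mitf was 0.63 ± 0.112 in PRMT1FL (adjusted p = 0.00266) and 0.66 ± 0.118 in PRMT1Cx3cr1-KO (adjusted p = 0.00423), both under the fold threshold. The genotype difference in CD11c low cells was 0.15 ± 0.137 (adjusted p = 0.569) and the interaction of genotype and diet 0.03 ± 0.163 (adjusted p = 0.943). Between the CD11c gates of PRMT1FL the log2 fold of Mitf was 0.67 ± 0.137 (limma, adjusted p = 0.0294), with adjusted p of 0.0533, 0.0503 and 0.0515 without PRMT1FL replicate 2, PRMT1Cx3cr1-KO replicate 1 and PRMT1Cx3cr1-KO replicate 2. Between PRMT1Cx3cr1-KO CD11c low and PRMT1FL CD11c high cells it was -0.52 ± 0.137 (limma, adjusted p = 0.0442), and the adjusted p was 0.035 without PRMT1FL replicate 1 but 0.0563 to 0.0647 without any other 1 of the normal-diet libraries.

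RefSeq lists 3 start sites for Mitf, and the reads were counted on 1 transcript (chr6:97807058-98021358, plus strand, 4871 bases), so the use of single promoters was not measured. The window before its start, chr6:97806808-97807057, is shown with the C/EBP-type letters in capitals, 129 bases before the start site, since Mitf and the factors that read such letters are both among the 9 genes.
Mitf: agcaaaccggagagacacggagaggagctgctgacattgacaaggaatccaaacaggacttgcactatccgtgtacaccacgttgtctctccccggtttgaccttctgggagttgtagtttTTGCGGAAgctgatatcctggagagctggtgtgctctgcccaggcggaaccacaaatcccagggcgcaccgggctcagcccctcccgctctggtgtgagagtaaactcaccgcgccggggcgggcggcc

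**Figure D3:**
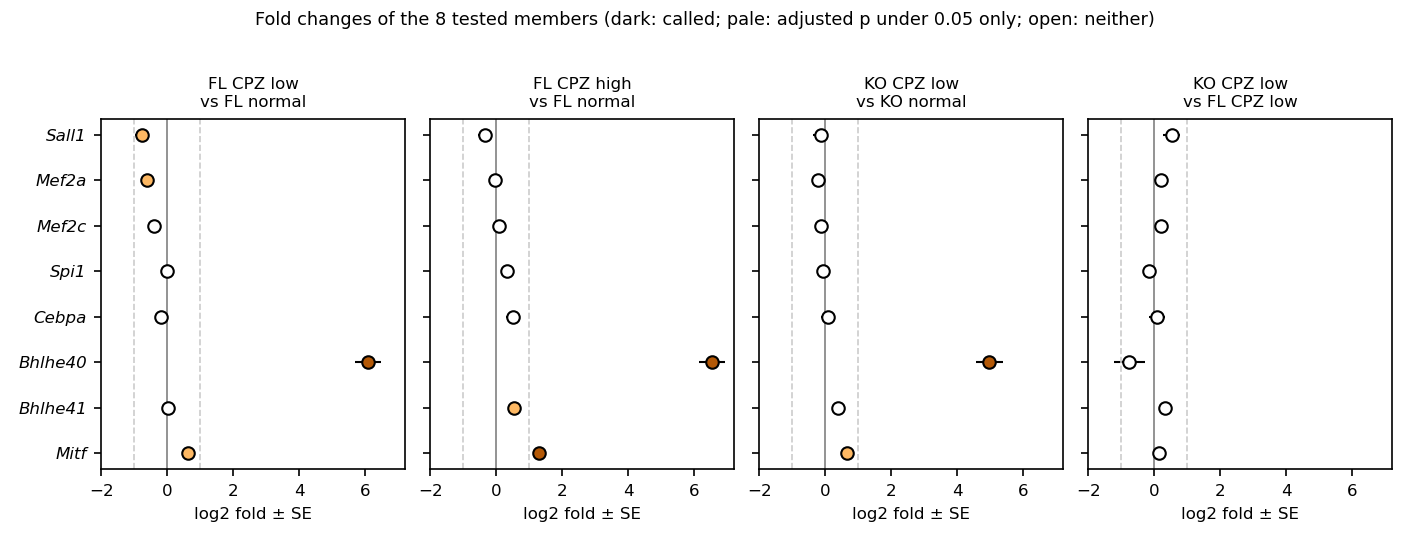
Log2 fold with its SE (horizontal axis) of the 8 tested members (rows) in 4 comparisons (panels). Dark points passed adjusted p under 0.05 and an absolute log2 fold over 1, pale points passed the adjusted p alone, and open points passed neither. Bhlhe40 lies at 6.07, 6.53 and 4.97 in the first 3 panels, Mitf at 0.63, 1.30 and 0.66, and no member passed between the genotypes in CD11c low cells.

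A list of 34 lysosomal and osteoclast-type genes known as targets of the MiT/TFE factors was set beside Mitf, of which 30 passed the filter. Gpnmb, a transmembrane glycoprotein of phagocytic macrophages, had 2.317, 2.224 and 4.071 scaled reads in normal-diet PRMT1FL and 449.6, 667.5 and 491.9 in the CPZ libraries. Atp6v0d2, a subunit of the vacuolar proton pump, had 0 to 1 reads per library on the normal diet and, on CPZ, 46 and 65 reads in CD11c low and CD11c high PRMT1FL cells and 20 in PRMT1Cx3cr1-KO cells. The log2 folds of Gpnmb were 6.90, 7.46 and 6.78 in these 3 groups, and those of Rragd, a GTPase that brings mTORC1 to the lysosome, were 2.99, 4.01 and 1.61. Gla, the lysosomal alpha-galactosidase, rose by a log2 fold of 2.02 in PRMT1FL CD11c low and 1.16 in PRMT1Cx3cr1-KO CD11c low cells. All of these passed the test (limma, adjusted p from 1.01e-06 to 0.0476). In PRMT1Cx3cr1-KO the Rragd call held in 8 of 16 settings and was lost without PRMT1FL replicate 3, PRMT1Cx3cr1-KO replicate 1 or PRMT1Cx3cr1-KO replicate 2, and the Gla call in 14 of 17, lost without the first or second of these.

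Of the 30 tested targets, 4 rose and 1 fell in PRMT1FL CD11c low cells, 8 rose and 1 fell in PRMT1FL CD11c high cells, and 4 rose and none fell in PRMT1Cx3cr1-KO CD11c low cells. Of all tested genes 12.8%, 16.3% and 8.48% were called in these comparisons, and the first and last counts lie near those shares. The medians of their log2 folds were 0.17, 0.80 and 0.30, where the medians of all tested genes were -0.03, -0.01 and -0.01. Between CD11c high and CD11c low PRMT1FL cells 4 of the 30 rose, beside 1.93% of all genes called in either direction. Among them were Ctsd (1.28), Psap (1.19) and Lamp1 (1.03), which encode abundant lysosomal proteins. The median of the 30 was 0.575 there, while that of the 8 microglial markers was 0.88, with 3 called higher. With a common total 1 of the 30 rose and 1 fell, with quantile normalization none was called, and without PRMT1FL replicate 2 the count was 2. Before scaling, Ctsd had 1459 reads in CD11c low and 1353 in CD11c high cells. In that order Psap had 1480 and 1289 and Lamp1 1293 and 1011, at size factors of 1.348 and 0.5154. Duplicate removal keeps about 1 read per base and strand, and these genes reached 0.793, 0.563 and 0.584 reads per base. The part of depth in the folds of CD11c high cells was not tested. Between the genotypes in CD11c low cells none of the 30 was called, beside 2.17% of all genes, and none by edgeR or DESeq2. The median there was 0.10 (-0.01 with a common total). The gene that fell in both PRMT1FL groups was Sgsh, the lysosomal sulfamidase, with 264.2, 253.5 and 243.4 scaled reads in normal-diet PRMT1FL, 89.77 in CD11c low and 44.63 in CD11c high cells. Sgsh was the 1 of the 30 called in the interaction of genotype and diet, beside 0.865% of all genes (1.07 ± 0.195, limma, adjusted p = 0.0396), a call that held in 11 of 17 settings. It was lost without any 1 of PRMT1FL replicates 2 and 3 and PRMT1Cx3cr1-KO replicates 1 and 2, with an adjusted p of up to 0.331. Its PRMT1Cx3cr1-KO values were 193.6 and 198.9 on the normal diet and 146.6 on CPZ. The other family members, Tfeb (251 to 350 scaled reads) and Tfe3 (674 to 923), were called in no comparison.

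**Figure D4:**
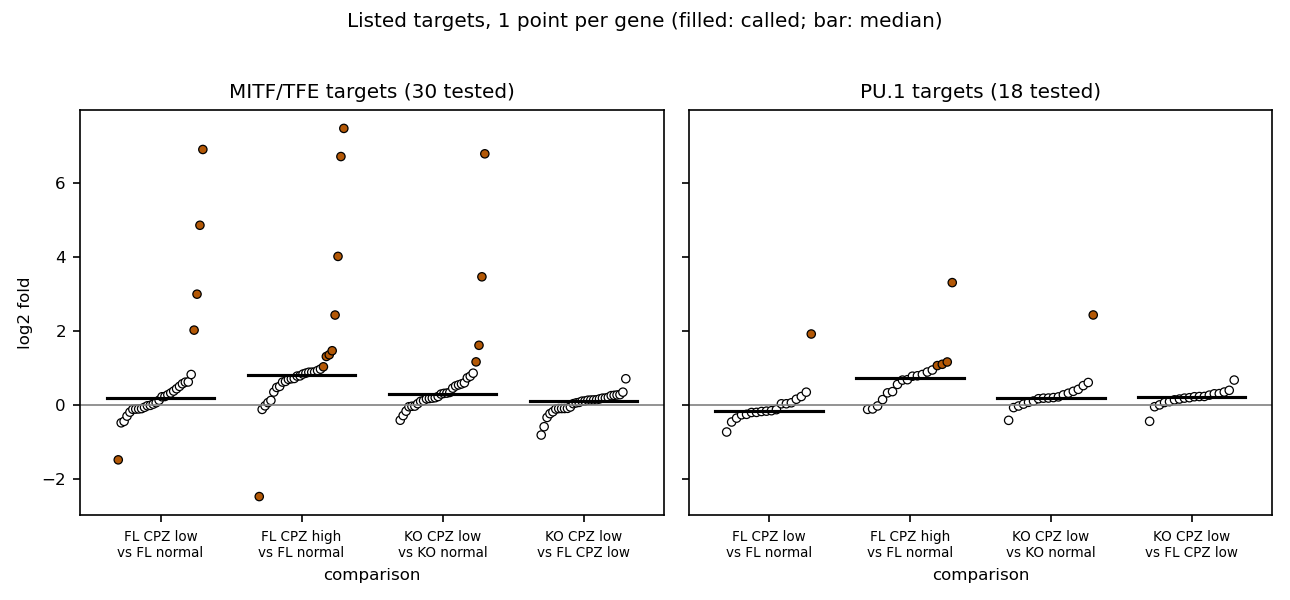
Log2 folds (vertical axis) of the 30 tested MITF/TFE targets and the 18 PU.1 targets in 4 comparisons (horizontal axis), 1 point per gene, filled where called, with a bar at the median. The median of the MITF/TFE targets is 0.80 in PRMT1FL CPZ CD11c high cells and that of the PU.1 targets 0.72, and no point is filled between the genotypes in CD11c low cells.

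Tfec, the MiT/TFE factor known from macrophages, was the only 1 of the 9 genes whose libraries did not overlap between the genotypes over all 8 libraries. None of the 8 tested members did so, where 3.74% of all tested genes showed no overlap. It had 2, 1 and 3 reads in normal-diet PRMT1FL, 2 in PRMT1FL CPZ CD11c low and 1 in PRMT1FL CPZ CD11c high. In PRMT1Cx3cr1-KO it had 19 and 8 reads on the normal diet and 45 on CPZ. The 3 PRMT1Cx3cr1-KO libraries thus held 6.77 to 42.57 scaled reads of Tfec and the 5 PRMT1FL libraries 1.112 to 2.442, with no overlap. Per total reads the ratio of PRMT1Cx3cr1-KO to PRMT1FL was 5.52 on the normal diet (27 against 6 reads, exact 95% interval for counting error 2.23 to 16.4) and 26.6 in CPZ CD11c low cells (45 against 2 reads, 6.95 to 226). Within PRMT1Cx3cr1-KO the CPZ library held 3.83 times the normal-diet level (2.32 to 6.42). Summed monocyte and border macrophage markers overlapped between the genotypes, at 365 to 651 scaled reads in PRMT1Cx3cr1-KO and 186 to 594 in PRMT1FL. Neutrophil markers were at their lowest, 5.68, in the library with most Tfec. The part of these cells in the Tfec values was not tested.

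The mean of Tfec fell short of the filter. With no filter its log2 fold between PRMT1Cx3cr1-KO and PRMT1FL was 4.13 ± 0.7 in CPZ CD11c low cells (limma, adjusted p = 0.0817) and 3.89 ± 0.7 against PRMT1FL CD11c high cells (adjusted p = 0.0767), and neither was called. On the normal diet it was 1.94 ± 0.452 (adjusted p = 0.539), and the interaction of genotype and diet was 2.19 ± 0.833 (adjusted p = 0.31). With a minimum mean of 5, set after its values had been seen, Tfec passed both thresholds in the first pair of comparisons. It enters that test only through the PRMT1Cx3cr1-KO libraries, where it is high, so this is no support for a difference. At its highest, Tfec made up 24.11 scaled reads per kb, where Mitf had 102 in the same library.

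Tfec was counted on 1 transcript (chr6:16833381-16898441, minus strand, 1766 bases, GRCm38), and it lies on chromosome 6 with Mitf, Bhlhe40 and Bhlhe41. The window before its start, chr6:16898442-16898691, is shown because the Tfec libraries did not overlap between the genotypes, and it holds none of the 4 motifs searched. Its share of G and C was 39.2%, against 59.6% for Mitf and 73.6% for Bhlhe41.
Tfec: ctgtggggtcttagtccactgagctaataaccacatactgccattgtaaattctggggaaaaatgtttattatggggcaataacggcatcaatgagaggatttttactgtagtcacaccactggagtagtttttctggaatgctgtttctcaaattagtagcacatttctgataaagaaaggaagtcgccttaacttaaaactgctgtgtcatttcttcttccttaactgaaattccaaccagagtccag

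Between the genotypes on the normal diet none of the 8 tested members was called, beside 0% of all 11220 genes. The log2 folds of the members lay between -0.19 and 0.34, with 0 members at an unadjusted p under 0.05 and none called by edgeR or DESeq2. Over all genes 965 had an unadjusted p under 0.05, edgeR called 0 and DESeq2 3. Mitf was the 1 of 8 tested members whose libraries did not overlap between the genotypes (311.4 to 315.9 against 272.5 to 300.4 scaled reads), where 25.7% of all tested genes showed no overlap.

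Between PRMT1Cx3cr1-KO and PRMT1FL in CPZ CD11c low cells, 0 of the 8 tested members were called beside 2.17% of all genes, with 0 at an unadjusted limma p under 0.05 and 0 called by edgeR or DESeq2. At an unadjusted p under 0.05 edgeR had Bhlhe40 there, and DESeq2 had Bhlhe40 and Sall1. Between PRMT1Cx3cr1-KO CD11c low and PRMT1FL CD11c high cells, which differ in genotype and gate at the same time, 0 of 8 were called beside 3.84% of all genes, with 4 at an unadjusted p under 0.05, while edgeR and DESeq2 each called 1, Bhlhe40. The interaction of genotype and diet called 0 of 8 beside 0.865% of all genes, with 0 at an unadjusted limma p under 0.05 and 0 called by edgeR or DESeq2. In the interaction both edgeR and DESeq2 had Bhlhe40 and Sall1 at an unadjusted p under 0.05. These comparisons share libraries, and with 1 library a group they cannot show that the genotypes are alike.

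Between CD11c high and CD11c low PRMT1FL cells 0 of 8 members were called beside 1.93% of all genes, by edgeR and DESeq2 as well. All 8 log2 folds were positive, from 0.34 for Spi1 to 0.68 for Cebpa, and 5 had an unadjusted p under 0.05. This common direction depends on the scaling. With quantile normalization the log2 folds of Sall1, Mef2a, Mef2c, Spi1 and Cebpa turned negative, at -0.29, -0.07, -0.16, -0.003 and -0.02, while Mitf kept 0.36. The CD11c high library was also the shallowest. Duplicate removal keeps about 1 read per base and strand, and Cebpa reached 0.693, Sall1 0.657, Mef2a 0.469, Spi1 0.532 and Mef2c 0.363 reads per base in the library with most reads of each. The part of depth in these positive values was not tested. The gate gene Itgax itself had 655.8 scaled reads in CD11c low and 1871 in CD11c high PRMT1FL cells, 345.3 in PRMT1Cx3cr1-KO CD11c low cells and 50.04 to 78.78 on the normal diet. The CD11c low cells on CPZ were thus not free of Itgax RNA. None of 19 tested factors on a list of 20 other myeloid transcription factors was called in any of the 8 comparisons with the settings above. Under other settings Bcl6, a transcriptional repressor, was called lower in the interaction of genotype and diet with edgeR, with quantile normalization and without PRMT1FL replicate 1 or 3. Without PRMT1FL replicate 3 it was also called higher in CD11c high than in normal-diet PRMT1FL cells, and Ets1 was called lower there with a common total and in the comparison's own table. Of the others, Irf8 had a log2 fold of 0.79 ± 0.159 (limma, adjusted p = 0.00334) in CD11c high against normal-diet PRMT1FL cells, and Runx1 0.21 ± 0.142 (adjusted p = 0.264).

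Other genes were ranked by how their log2 levels followed each member over the 8 libraries. By Pearson r among genes with a mean of at least 50 scaled reads (8500, besides the member), Bhlhe40 was nearest to Efr3b (r = 0.996), Il2rg (0.996) and Gyg (0.995). Mitf was nearest to Kif13b, Gpi1 and Pbxip1 (each 0.99), and Bhlhe41 to Myh9 (0.994), Caprin1 (0.991) and Slc37a2 (0.98). Sall1 was nearest to Thumpd3 (0.992), Cttnbp2nl (0.99) and Dcaf12 (0.982), and Mef2a to Mdm4 (0.992), Inpp5d (0.991) and Mylip (0.985). Mef2c was nearest to Mertk (0.982), Ttc5 and Ubr2 (both 0.976), Spi1 to Mid1ip1 (0.986), Nr4a1 (0.979) and Eif1 (0.964), and Cebpa to Ppp1r9b (0.972), Fndc3a and Ywhah (both 0.961). The genes nearest to Tfec were Chpf2 (0.956), Dapk1 (0.955) and Ankrd39 (0.945), of 8501. Among the members themselves Bhlhe40 and Mitf had r = 0.93, and Bhlhe40 and Sall1 -0.77. With 8 libraries in 5 groups such values describe these libraries only.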

How the data were processed

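RNA from sorted CD11b+/CD45inter mouse microglia was sequenced in 8 libraries. The authors aligned reads with Bowtie2, removed duplicates with SAMtools 0.1.19, quantified genes with HOMER and ran FastQC 0.11.9. The strand setting is not stated. The text names hg19 and the labels also name GRCm38 and mm10, but the coordinates were GRCm38, with 98.8% of 24366 symbols overlapping the GENCODE gene of that name. The 6 deposited tables give signal values, which the authors made by bringing each library's read counts to the same total within a table. The authors' columns of fold changes and p-values were not used.

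Each column was divided by the value of a single read, and 100% of the quotients were whole within 0.1. Of the 25238 genes common to the tables, 81 were left out because their reads disagreed from table to table (beyond 1 read and 5%). Groups came from the titles. Log2(scaled reads + 1) was fitted in R 4.3.3 by limma 3.58.1 with a trended prior variance, two-sided, and p-values were adjusted by Benjamini-Hochberg. edgeR 4.0.16 and DESeq2 1.42.0 on the recovered reads were alternatives, and the fit was tested on simulated data. Exact intervals came from SciPy 1.17.1, and intervals cover counting error only. Removal of duplicates limits single-end reads to about 1 per base and strand, and no member exceeded 0.693 reads per base.

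The 9 members are all named. From each gene list the called genes are named, at most the 4 with the widest folds per comparison, and for each member the 3 genes with the highest r. Alternatives were other scalings, filters and pseudocounts, each comparison's own table, edgeR, DESeq2, a replicate block and leaving out single libraries. Members and lists were chosen with earlier results of these data known. Trem2, Tfeb, Tfe3, Sall3, the Sgsh value in CD11c low cells, Irf8, Runx1, Bcl6 and Ets1 were named after their values were seen. Some listed genes are not reported by name here.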

Additional observations from a re-analysis of the deposited data

How the results depend on the processing

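Of the log2 folds of single members, 1056 kept their direction and their side of the test under the alternatives tried, 37 turned, 11 moved and 2 came past the threshold. Bhlhe40 was called against the normal diet under every alternative that gave a test, with log2 folds of 5.61 to 6.19 in PRMT1FL CD11c low, 6.07 to 6.64 in PRMT1FL CD11c high and 4.48 to 5.45 in PRMT1Cx3cr1-KO CD11c low cells. Mitf was called in PRMT1FL CD11c high cells in all 18 settings (1.12 to 1.33). The number of members called between PRMT1Cx3cr1-KO and PRMT1FL CD11c low cells was 1 in place of 0 with a mean of at least 5 (Tfec), and 0 to 1 when single libraries were left out (1, Tfec, without PRMT1FL replicate 1). Between PRMT1Cx3cr1-KO CD11c low and PRMT1FL CD11c high cells it was 1 with edgeR (Bhlhe40), 1 with DESeq2 (Bhlhe40) and 1 with a mean of at least 5 (Tfec), and 0 to 1 when single libraries were left out (1, Tfec, without PRMT1FL replicate 1 or 2). Tfec enters these counts only through the libraries where it is high, so they are no support for a difference.

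The log2 folds that turned were not all near 0 in the main fit. Between the gates it gave 0.68 for Cebpa, 0.57 for Mef2a, 0.49 for Mef2c, 0.41 for Sall1 and 0.34 for Spi1. The cause of the turns was not tested. With quantile normalization the turned folds were, on the normal diet between genotypes, 0.005 for Sall1 and 0.029 for Mef2c. In PRMT1FL CD11c low cells against the normal diet they were 0.153 for Spi1 and 0.147 for Cebpa, and in CD11c high cells -0.258 for Mef2c. Between CD11c high and low PRMT1FL cells they were -0.293 for Sall1, -0.072 for Mef2a, -0.16 for Mef2c, -0.003 for Spi1 and -0.018 for Cebpa. Between the genotypes in CD11c low cells they were -0.011 for Mef2a, -0.064 for Mef2c and -0.198 for Cebpa, against PRMT1FL CD11c high cells 0.061 for Mef2a, 0.096 for Mef2c and 0.104 for Bhlhe41, and in the interaction -0.093 for Mef2c, -0.087 for Cebpa and -0.105 for Mitf. With a common total they were -0.064 for Mef2c in CD11c high cells, 0.089 for Spi1 in CD11c low cells, -0.026 for Cebpa between genotypes in CD11c low cells and -0.096 for Mitf in the interaction. Each comparison's own table gave -0.063 for Mef2c in CD11c high and 0.089 for Spi1 in CD11c low cells. For Spi1 in CD11c low cells edgeR gave 0.01 and DESeq2 0.006, for Mitf in the interaction DESeq2 gave -0.001, and for Bhlhe41 in CD11c low cells TMM scaling gave -0.002.

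Leaving out single libraries gave ranges that crossed 0 for Mef2a in PRMT1FL CD11c high cells (-0.145 to 0.002), Spi1 in PRMT1FL CD11c low cells (-0.096 to 0.04), Spi1 in the interaction (-0.11 to 0.031) and Cebpa in PRMT1Cx3cr1-KO CD11c low cells against its normal diet (-0.002 to 0.135). They also crossed 0 between genotypes on the normal diet for Bhlhe40 (-0.143 to 0.817) and Bhlhe41 (-0.144 to 0.017), and for Bhlhe41 in PRMT1FL CD11c low cells (-0.067 to 0.09).

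Counts over all genes moved by more than 1.5 times. They were 0 on the normal diet between genotypes (0 to 37 over the alternatives), 1440 in PRMT1FL CD11c low cells (760 to 1610), 1824 in PRMT1FL CD11c high cells (1112 to 2046) and 216 between the gates (76 to 573). They were 244 between genotypes in CD11c low cells (128 to 515), 431 against PRMT1FL CD11c high cells (185 to 577), 952 in PRMT1Cx3cr1-KO against its normal diet (495 to 1099) and 97 in the interaction (20 to 288). With the replicate number as a replicate block on the normal diet, 0 members and 0 genes were called. Samples of 1 number share only that number (correlation of deviations 0.01 over 2 pairs). The share of higher among called genes depended on the scaling, the filter and the test. Between the gates it was 35.6%, 34.9% with TMM, 3.9% with a common total, 21.8% with quantile normalization, 50.8% with no filter and 76.3% with DESeq2, which keeps the scaling. Between PRMT1Cx3cr1-KO CD11c low and PRMT1FL CD11c high cells it was 64.5%, 81.5% with a common total, 29.3% with no filter and 42.7% with DESeq2, and between genotypes in CD11c low cells 44.7%, 29.6% with a common total and 15.2% with no filter. In PRMT1FL CD11c low cells it was 68.1% and 50.4% with quantile normalization, and in CD11c high cells 55.6% and 44.6% with a common total. A comparison's own table allows no test of 1 library against 1, and none exists for PRMT1Cx3cr1-KO on CPZ against its normal diet or for the interaction.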
